A study of Mus musculus with 6 samples.

Results

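The genes described here are 38 genes of ribosome biogenesis, chosen by name from the literature roles of their products: subunits and factors of RNA polymerase I (Pol I), proteins of the small nucleolar ribonucleoproteins (snoRNPs), and factors that process and assemble the ribosomal RNA. The choice was made with earlier results of these data known. All 38 were among the 23337 genes counted. They were read in RNA-seq of sorted mouse leukaemia initiating cells (LICs), the cells of a leukaemia that can start it again, with 3 libraries from adult leukaemia (replicates 1, 2 and 4) and 3 from neonatal leukaemia (replicates 4, 7 and 8). The source label reads HSPCs (haematopoietic stem and progenitor cells), and the labels give no strain, sex, leukaemia driver, treatment or age in days for either group. Nor do they tell if each replicate is its own animal, and the p-values then reflect only how far these samples spread, a spread that may be technical.

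Ribosomes are made in the nucleolus. Pol I transcribes one long ribosomal RNA precursor, snoRNPs guide the methylation and pseudouridylation of that precursor, and the small and large subunits are then cut out and assembled by separate sets of processing factors. MYC is a well-known activator of these genes, and growing blood progenitors and leukaemia cells rely on a high output of ribosomes.

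Library totals ran from 60113466 to 66132051 counts in 5 libraries, and neonatal replicate 4 held 3932833. Even there the least counted member, Rrp12, had 45 counts, and no member fell below 575 counts in any other library. The 10 stem and progenitor markers had counts in all libraries, but their levels shifted between the groups. Flt3 (4.58 to 19.4 CPM adult, 256 to 1231 CPM neonatal) and Cd34 (8.16 to 105 CPM adult, 396 to 662 CPM neonatal) were higher in neonatal libraries without overlap (20%, against 7.67% of all genes). Elane (8257 to 9479 CPM adult, 726 to 7806 CPM neonatal) was lower without overlap (10%, against 12%). None of the 10 was called by edgeR on 6 libraries. Without neonatal replicate 4, edgeR called 2 of the 10 higher (Kit and Flt3) and 2 lower (Elane and Prtn3), against 3.72% and 2.25% of all genes. CPM are counts relative to library size, scaled between libraries by the TMM method. The part of this shift in the members' values was not tested. Of 10 maturing neutrophil markers the summed level was 1846 to 14890 CPM in adult and 79.6 to 292 CPM in neonatal libraries. By gene, 5 of the 10 were lower in neonatal libraries without overlap (50%, against 12% of all genes). Mmp8, Mmp9, Lcn2, Cxcr2 and Retnlg overlapped between the groups. None of these markers was at 0 in an adult library, while Ltf, Mmp9 and Retnlg were at 0 in neonatal replicate 4 and Ltf in replicate 8. Neonatal replicate 4 was the shallow library, in which 3 counts equalled 0.763 CPM. The B cell genes Ms4a1 and Pax5 and the T and NK cell genes Cd3e, Cd3g, Cd4 and Ncr1 were at 0 in all 6 libraries. Other genes of these lists were not: Cd79b ran from 28.3 to 68.5 CPM in adult libraries and from 70.8 to 146 CPM in neonatal ones, without overlap, and Nkg7 from 35.9 to 270 CPM over all 6. The sex of the cells went with the age group: Xist was at 51.7 to 185.9 CPM among neonatal libraries and no higher than 0.920 CPM in adult ones, while Ddx3y was at 98.8 to 154 CPM in adult libraries and had 1 count in the neonatal libraries together. Age group and sex therefore cannot be told apart.

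RefSeq promoters (build GRCm38.p6, 250 bases before to 50 after the start of a gene) were matched by symbol for 33 of the 38 members. They are shown because members are known MYC targets, and CACGTG, the E-box to which MYC binds, can be looked for in them. CACGTG reads the same on both strands and was present in 6 of the 33 promoters (18.2%), those of Rrn3, Utp20, Wdr43, Pes1, Nop2 and Mybbp1a, against 8.91% of 17491 protein-coding genes. GGGCGG, the GC box, was present on either strand in 27 of 33 (81.8%) against 49.2%, and CCAAT on either strand in 10 of 33 (30.3%) against 42.3%. None of these 3 motifs contains another. A match describes the letters and does not show binding. In Nop2 and Rrn3 the E-box lay upstream of the start, and the 54 bases around the copy nearest to it are given with the E-box in capitals. The last line gives the 120 bases before the start of Polr1b, the member with the smallest adjusted p without neonatal replicate 4, with its GC box in capitals.
Nop2, plus strand, chr6:125131799-125131852: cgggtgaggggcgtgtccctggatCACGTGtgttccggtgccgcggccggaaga
Rrn3, plus strand, chr16:13780627-13780680: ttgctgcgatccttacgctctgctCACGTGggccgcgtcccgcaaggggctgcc
Polr1b, plus strand, chr2:129100876-129100995: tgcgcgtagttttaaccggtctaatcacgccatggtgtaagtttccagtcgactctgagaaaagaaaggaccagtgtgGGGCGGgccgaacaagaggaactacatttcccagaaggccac

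The comparison of neonatal with adult LICs asked how the cells of the 2 ages differ. Across 6 libraries no member passed the test, while the members leaned towards higher values in neonatal LICs. Of 38 members, 34 had a positive log2 fold change (89.5%) and 4 a negative one, against 53.5% and 46.5% of the 13272 genes tested. The median log2 fold change of the members was 0.44, against 0.05 over all genes tested. With edgeR's quasi-likelihood test, 0 members were called higher and 0 lower at an adjusted p of 0.05, where 0.0151% of all genes were called higher and 0.0377% lower (0.0527% in either direction). At an unadjusted p under 0.05 the count of members was also 0, against 4.93% of all genes higher and 7.01% lower. DESeq2 called 0 members as well, where it called 5.75% of all genes in either direction. The smallest adjusted p of a member was 0.427, that of Ppan. In 3 members (7.89%) every neonatal library was above every adult library, against 7.67% of all genes, a share near that background. In 0 members was every neonatal library below every adult library, against 12% of all genes.

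**Figure D1:**
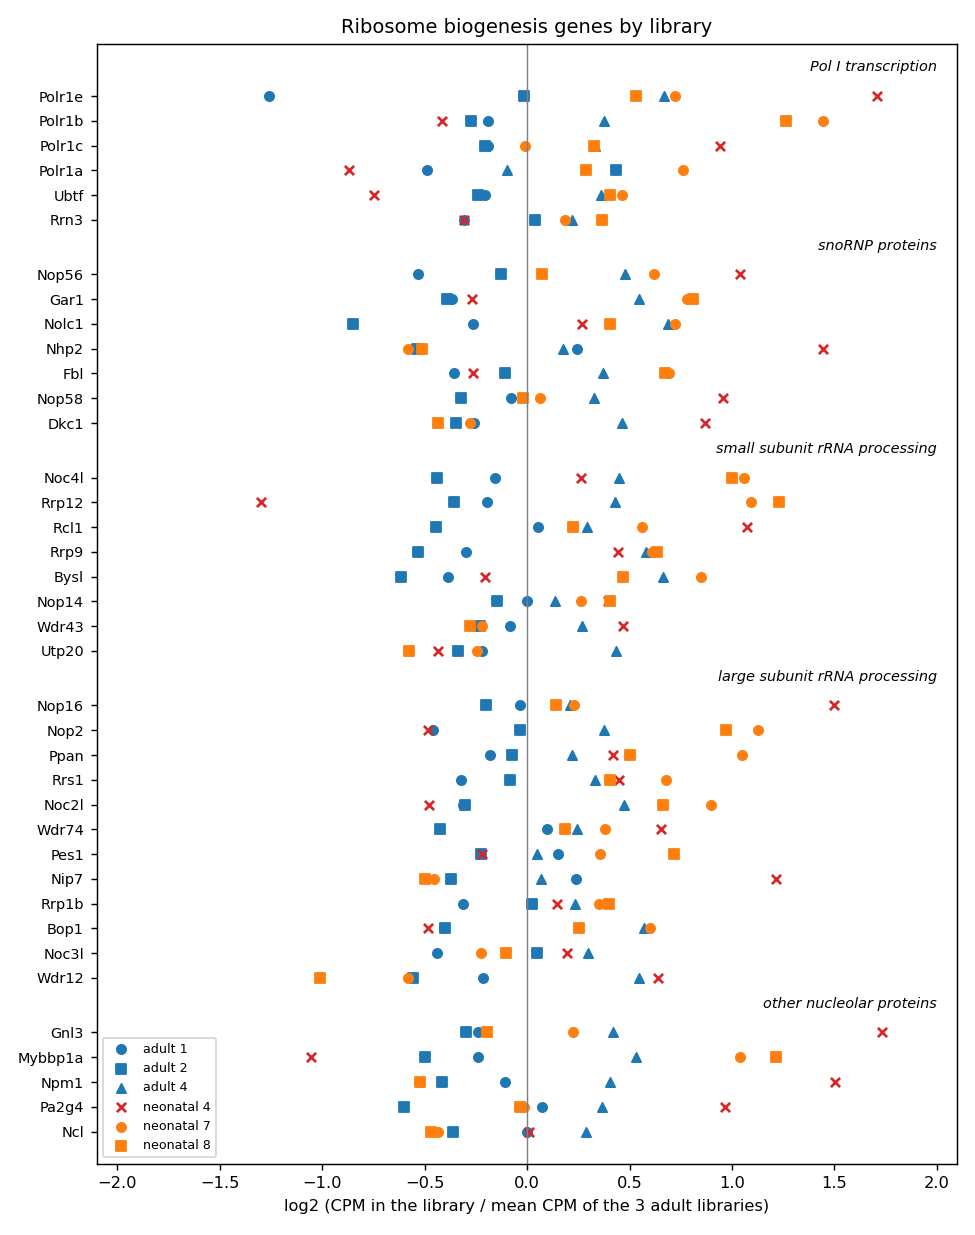
Log2 ratio of each library's CPM to the mean CPM of the 3 adult libraries (x axis) for the 38 members, grouped by role (y axis); each point is 1 library. Adult replicate 4 (blue triangles) sits to the right of the other adult libraries in 34 of 38 genes, and neonatal replicate 4 (red crosses) sits on the other side of the adult mean from the mean of neonatal replicates 7 and 8 (orange) in 9 genes where it is above and 13 where it is below.

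Neonatal replicate 4, the shallow library, differed from the other neonatal libraries in which members were high. Relative to the adult mean, 15 members were above it in neonatal replicate 4 and in the mean of replicates 7 and 8, 9 were above it in replicate 4 only, 13 in replicates 7 and 8 only, and Utp20 in neither. Across the 38 members the log2 ratios of replicate 4 and of replicates 7 and 8 to the same adult mean had a Pearson r of -0.54, against 0.23 across 10548 genes with a mean of at least 2 CPM and a count in every library. These genes share libraries and the adult denominator, and are not independent points. Over the members, log2 CPM of neonatal replicate 4 had correlations of 0.746 and 0.736 with replicates 7 and 8, against 0.983 between those 2 and 0.964 to 0.968 among the adult libraries. Without neonatal replicate 4, 28 of 38 members had a positive log2 fold change (73.7%) and 10 a negative one, against 48% and 52% of 13856 genes tested. Their median was 0.40, against -0.05 over all genes. In that comparison 1 member was called higher and 0 lower by edgeR, against 3.72% and 2.25% of all genes (5.98% in either direction). At an unadjusted p under 0.05, 10 members were higher (26.3%, against 15.3% of all genes) and 0 lower, against 14.2%. In 15 members (39.5%) both libraries were above every adult library and in 4 (10.5%) both were below, against 25% and 25.6% of all genes.

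**Figure D2:**
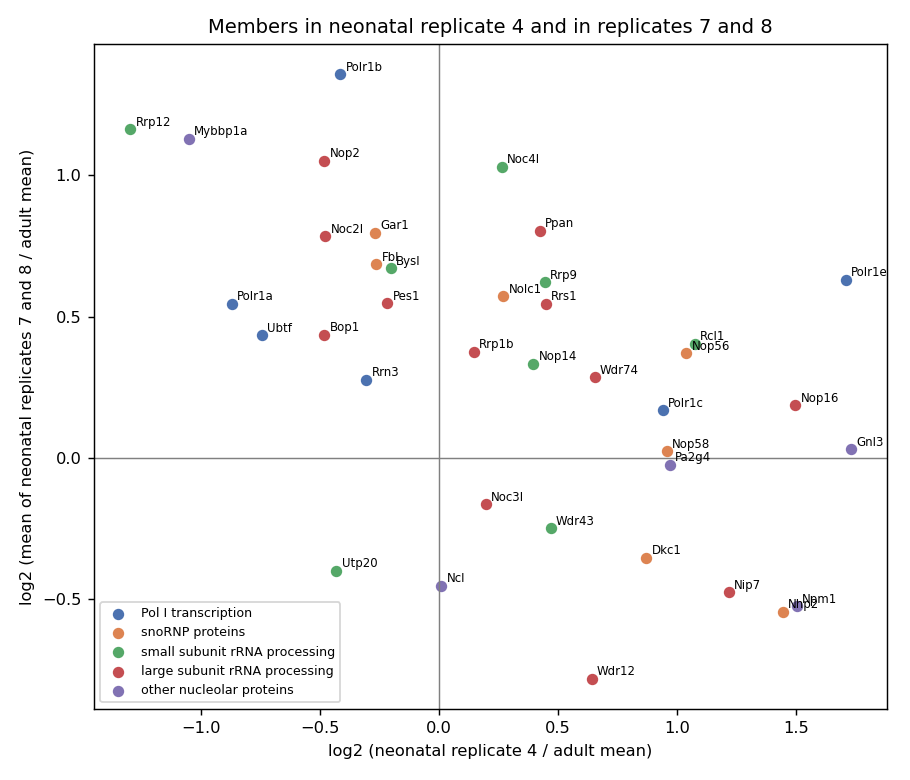
Log2 ratio of neonatal replicate 4 to the adult mean (x axis) against that of the mean of neonatal replicates 7 and 8 (y axis), 1 point per member, coloured by role. The upper left holds 13 genes such as Rrp12, Mybbp1a and Polr1b, the lower right 9 genes such as Npm1, Nhp2 and Wdr12, and the upper right 15.

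The Pol I machinery leaned towards neonatal LICs in all 6 genes (median log2 fold change 0.34, 0 of 6 called). By library, 2 of the 6 were above the adult mean in neonatal replicate 4, and 5 and 6 in replicates 7 and 8. Polr1b (chromosome 2, 129100996 to 129126595, mm10), which encodes the second largest subunit, stood at 28.7, 27.0 and 42.4 CPM for adult replicates 1, 2 and 4, and at 24.5, 89.1 and 78.4 CPM for neonatal replicates 4, 7 and 8. Neonatal replicates 7 and 8 were above every adult library, and replicate 4 was below all of them. The log2 fold change was 0.98 ± 0.49 (SE; adjusted p = 0.499 by edgeR), and without neonatal replicate 4 it was 1.37 ± 0.25 (SE; 2.58-fold, adjusted p = 0.0417 by edgeR). Over 23 alternatives the adjusted p of Polr1b ran from 6.995e-05 to 0.850. Polr1a, the gene of the largest and catalytic subunit, overlapped between the groups, at 26.5, 50.3 and 34.7 CPM in adult and at 20.3, 63.1 and 45.4 CPM in neonatal libraries.

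The smaller subunits had the opposite arrangement of neonatal libraries. Polr1e, the gene of a Pol I subunit that helps initiation, was at 75.3 CPM for neonatal replicate 4 and 37.98 and 33.3 CPM in replicates 7 and 8. In the adult libraries it ran from 9.64 to 36.7 CPM, the widest relative spread of any member there (CV 58.7%, against a median of 27.8% over the members). Polr1c, whose product is shared by Pol I and Pol III, was at 62.5, 32.4 and 40.9 CPM among neonatal and 28.2 to 41.0 CPM in adult libraries. Ubtf, which keeps ribosomal DNA open for transcription, was at 61.6, 142 and 137 CPM among neonatal and 87.6 to 132.5 CPM in adult libraries. Rrn3, which brings Pol I to its promoter, ran from 40.02 to 63.8 CPM over the 6 libraries, and the groups overlapped.

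Rn45s, the row named for the ribosomal RNA precursor (chromosome 17, 39842997 to 39848829, 5833 exon bases), was higher in each neonatal library than in any adult library. It stood at 1464, 1219 and 1165 CPM for adult replicates 1, 2 and 4 and at 1870, 3550 and 3538 CPM for neonatal replicates 4, 7 and 8. The log2 fold change was 1.22 ± 0.37 (SE; adjusted p = 0.2345 by edgeR), and without neonatal replicate 4 it was 1.48 ± 0.18 (SE; 2.78-fold, adjusted p = 0.0324 by edgeR). Polyadenylated RNA was selected, so this row reads what passed that selection, and the ribosomal genes are repeated in the genome while the row holds 1 locus. How much ribosomal RNA passed the selection in each library was not measured. Nor was it measured if the reads came from the precursor or from the RNA cut out of it, so the row is no measure of Pol I output.

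The members did not follow Rn45s library by library. Their summed level was 5276, 4577 and 7424 CPM for adult replicates 1, 2 and 4 and 9145, 6402 and 5894 CPM for neonatal replicates 4, 7 and 8. Neonatal replicate 4 thus had the highest sum, while its Rn45s was the lowest of the neonatal group. Counts of the 38 members together were 3.60, 3.76 and 6.38 times those of Rn45s in the adult libraries, 4.89 times in neonatal replicate 4, and 1.80 and 1.67 times in replicates 7 and 8. Without Npm1 and Ncl, the most counted members, the sums were 3431, 3122 and 5038 CPM among adult and 5967, 5032 and 4543 CPM among neonatal libraries. Myc was at 66.9, 264 and 195.5 CPM in adult and at 303, 488 and 381.5 CPM in neonatal libraries, without overlap (log2 fold change 1.16 ± 0.50, SE; adjusted p = 0.424 by edgeR), and Mycn had no counts.

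**Figure D3:**
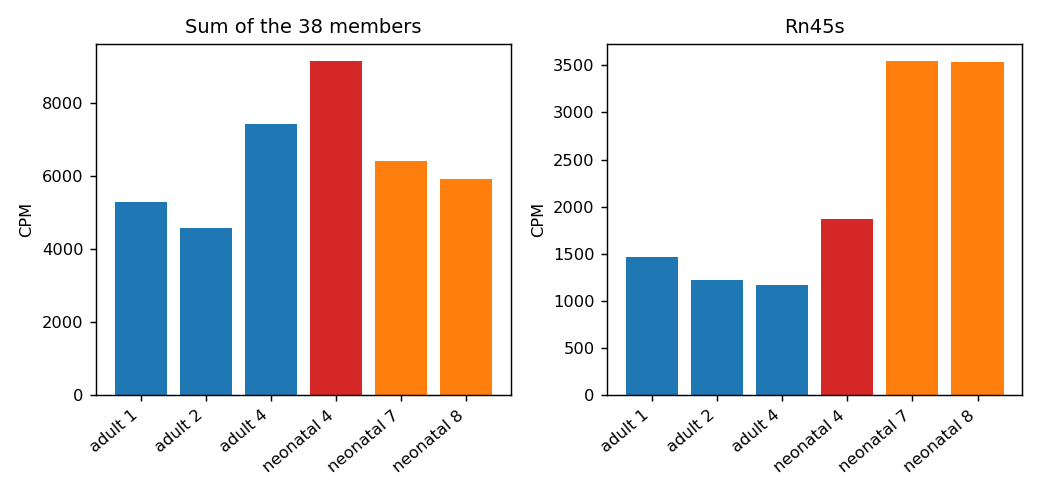
Summed CPM of the 38 members (left) and CPM of Rn45s (right) in each of the 6 libraries (blue adult, red neonatal replicate 4, orange neonatal replicates 7 and 8). The members' sum is highest in neonatal replicate 4 at 9145 CPM, whereas Rn45s is highest in neonatal replicates 7 and 8 at 3550 and 3538 CPM.

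The 7 snoRNP genes all had positive log2 fold changes on 6 libraries, from 0.18 to 0.63 with a median of 0.45, and none passed. Without neonatal replicate 4, 5 of the 7 were positive (median 0.38). Fbl, the methyltransferase of box C/D snoRNPs, was at 98.2, 116.5 and 162 CPM among adult and 105, 203 and 201 CPM among neonatal libraries. Its scaffold partners differed from it: Nop58 reached 332 CPM in neonatal replicate 4 but was at 179 and 169 CPM in replicates 7 and 8, within the adult range of 137 to 215 CPM. Nop56, the other scaffold protein, was at 722, 539 and 369 CPM among neonatal and 243 to 490 CPM among adult libraries. Nolc1, a snoRNP chaperone, was at 169 to 231 CPM in neonatal libraries and at 117, 77.9 and 226 CPM for adult replicates 1, 2 and 4.

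The box H/ACA genes, whose products place pseudouridines, split in the same way. Dkc1 (chromosome X, 75095854 to 75109776), the pseudouridine synthase gene mutated in dyskeratosis congenita, was at 467 CPM for neonatal replicate 4 and 211 and 189 CPM in replicates 7 and 8, against 200.5 to 352 CPM in adult libraries. It is the member on chromosome X, and the sex of the cells differed between the groups. Gar1 was at 44.5 CPM for neonatal replicate 4 and 92.3 and 94.3 CPM in replicates 7 and 8, both above the adult libraries at 41.0 to 78.5 CPM. Nhp2 was at 603, 148 and 155.5 CPM among neonatal and 153 to 262 CPM among adult libraries, and its log2 fold change was 0.45 on 6 libraries and -0.53 with neonatal replicate 4 left out.

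Ratios between partners were formed within a library, on counts per kilobase of exon, and do not depend on library scaling. Of 11 pairs computed, the adult libraries lay between neonatal replicate 4 and neonatal replicates 7 and 8 in 4, which are printed here, and not in the other 7, such as Pes1 over Bop1 (0.870 to 1.84 adult, 1.06 to 1.73 neonatal). The 4 pairs were picked after the values had been seen and are given without a test. Their partners differed in GC content: Gar1 53.4% and Dkc1 45.2%, Fbl 56.0% and Nop58 42.9%. For Bop1 and Wdr12 it was 57.2% and 44.6%, and for Noc2l and Noc3l 56% and 43.7%. In each of the 4 the partner with more GC was relatively higher in neonatal replicates 7 and 8. The part of GC content in these ratios was not tested. Gar1 was at 0.431, 0.452 and 0.491 of Dkc1 in the adult libraries, at 0.966 and 1.10 in neonatal replicates 7 and 8, and at 0.210 in replicate 4. Fbl over Nop58 was 1.03 to 1.45 in adult libraries, 1.94 and 2.02 in neonatal replicates 7 and 8, and 0.537 in replicate 4. In both pairs neonatal replicate 4 lay on the far side of the adult libraries from replicates 7 and 8.

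**Figure D4:**
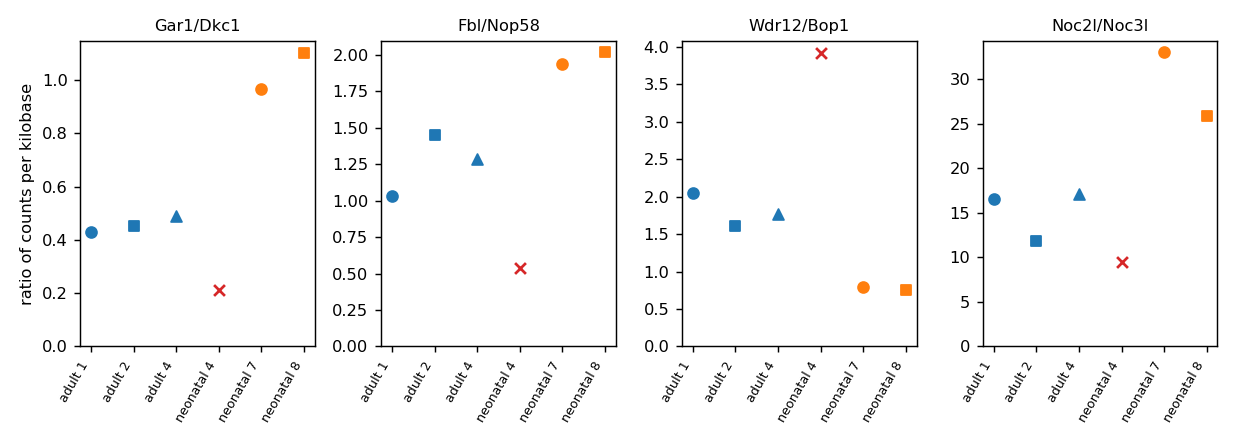
Ratio of counts per kilobase between 2 partner genes (y axis, from 0) in each library (x axis), for Gar1 over Dkc1, Fbl over Nop58, Wdr12 over Bop1 and Noc2l over Noc3l. In each of these 4 pairs, chosen for it out of 11, the adult libraries lie between neonatal replicate 4 and neonatal replicates 7 and 8. The partners of each pair also differ in GC content.

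Among the 8 genes of small subunit processing, 7 had a positive log2 fold change (median 0.50), and none passed on 6 libraries. Without neonatal replicate 4, 6 of the 8 were positive (median 0.52). Nop14 and Noc4l encode partners in one complex of the small subunit processome. Nop14 (chromosome 5, 34638536 to 34660148) stood at 48.0, 43.3 and 52.7 CPM in adult and at 63.1, 57.5 and 63.5 CPM in neonatal libraries, without overlap (log2 fold change 0.35 ± 0.27, SE; adjusted p = 0.6815 by edgeR). It had the smallest relative spread of all members in both groups, with a CV of 9.81% in adult and 5.42% in neonatal libraries. Noc4l was at 75.3, 131 and 126 CPM among neonatal and 46.4 to 85.8 CPM in adult libraries (log2 fold change 0.82 ± 0.36, SE; adjusted p = 0.432 by edgeR).

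Rrp12, a factor needed for maturation and export of both subunits, had the largest log2 ratio of any member between neonatal replicates 7 and 8 and replicate 4, at 2.46. It was at 13.45 CPM in replicate 4, the lowest of all libraries, and at 70.5 and 77.6 CPM in replicates 7 and 8, above the adult range of 25.9 to 44.6 CPM. Without replicate 4 its log2 fold change was 1.17 ± 0.28 (SE; adjusted p = 0.0549 by edgeR), against 0.71 on 6 libraries. Rrp9, a protein of the U3 snoRNP that guides early cleavages, was at 49.9, 56.1 and 56.9 CPM in neonatal libraries and at 29.9, 25.4 and 54.9 CPM for adult replicates 1, 2 and 4. Rcl1, a processing factor of the precursor, was at 120, 84.0 and 66.5 CPM among neonatal and 41.8 to 69.7 CPM in adult libraries.

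The large scaffold protein gene Utp20 went the other way, at 16.8 to 21.1 CPM among neonatal and 19.8 to 33.7 CPM in adult libraries (log2 fold change -0.41 ± 0.35, SE). Wdr43, another processome component, was at 345, 215 and 206 CPM among neonatal and 213 to 300 CPM among adult libraries, and its log2 fold change was 0.03, or -0.05 with library totals alone and -0.24 with neonatal replicate 4 left out. Bysl, a factor of late small subunit maturation, was at 25.7, 53.2 and 40.9 CPM among neonatal and 19.3 to 46.8 CPM in adult libraries. Of its exon bases 9.29% overlap those of Ccnd3, and in libraries without strand the reads there cannot be told apart.

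Of 12 genes of large subunit processing, 10 had a positive log2 fold change on 6 libraries (median 0.38) and 9 without neonatal replicate 4 (median 0.42). None passed in either comparison. Ppan (chromosome 9, 20888175 to 20892179), an early assembly factor, stood at 94.4, 102 and 125 CPM in adult and at 143, 221.5 and 152 CPM in neonatal libraries, without overlap (log2 fold change 0.69 ± 0.30, SE; adjusted p = 0.427 by edgeR). Rrs1 (chromosome 1, 9545408 to 9547455), which helps to bring the small ribosomal RNA particle into the large subunit, was at 68.6, 80.8 and 108 CPM among adult and 117, 137 and 113 CPM among neonatal libraries, also without overlap (log2 fold change 0.51 ± 0.29, SE; adjusted p = 0.552 by edgeR). Nop2, an RNA methyltransferase, was at 50.5 CPM for neonatal replicate 4 and 154 and 138 CPM in replicates 7 and 8, against 51.3 to 91.5 CPM in adult libraries. Without replicate 4 its log2 fold change was 1.06 ± 0.26 (SE; adjusted p = 0.0589 by edgeR).

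Pes1, Bop1 and Wdr12 encode the PeBoW complex, which the large subunit precursor needs for cleavage. Wdr12 was at 443, 190 and 141 CPM for neonatal replicates 4, 7 and 8 and at 245, 193 and 415 CPM for adult replicates 1, 2 and 4. Pes1 had the opposite arrangement, at 147, 218 and 281 CPM among neonatal and 146 to 190.0 CPM in adult libraries, and Bop1 was at 83.1, 176 and 138 CPM among neonatal and 87.7 to 173 CPM in adult libraries. Per kilobase, Wdr12 was 1.61 to 2.05 times Bop1 in adult libraries, 0.792 and 0.748 times in neonatal replicates 7 and 8, and 3.91 times in replicate 4.

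Noc2l, a nucleolar assembly factor that also binds p53, was at 106, 274 and 233 CPM among neonatal and 118.5 to 204 CPM in adult libraries. Its exons overlap those of Samd11 over 21.5% of their bases. Noc3l, a partner of Noc2l, was the lowest member in 4 libraries by count, at 11.8 to 15.8 CPM among neonatal and 10.2 to 17.0 CPM in adult libraries. Nip7, which acts in late large subunit cleavage, was at 264.5 CPM in neonatal replicate 4, above every adult library (88.2 to 134 CPM), and at 83.3 and 80.6 CPM in replicates 7 and 8, below all of them. Nop16, an assembly factor, was at 218.5, 90.9 and 85.4 CPM among neonatal and 67.3 to 89.5 CPM in adult libraries. Wdr74 and Rrp1b, which act in nucleolar maturation of the large subunit, had neonatal means of 81.0 and 57.7 CPM and adult means of 60.6 and 46.8 CPM, with overlap between the groups.

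The 5 nucleolar proteins with several roles held the most abundant members. Of their genes, 4 had a positive log2 fold change on 6 libraries (median 0.49) and 2 without neonatal replicate 4 (median -0.01). None passed in either comparison. Npm1 (chromosome 11, 33152498 to 33163206), the nucleolar chaperone gene that is often mutated in human acute myeloid leukaemia, was at 1971 CPM for neonatal replicate 4 and 483 and 485 CPM in replicates 7 and 8. The adult libraries were at 645, 521 and 921 CPM, so replicate 4 was above and the other neonatal libraries below all of them. Its log2 fold change of 0.49 ± 0.60 (SE; adjusted p = 0.821 by edgeR) turned to -0.51 without replicate 4 (edgeR adjusted p = 0.246). Ncl, the gene of nucleolin, was at 866 to 1207 CPM among neonatal and 934 to 1465 CPM among adult libraries (log2 fold change -0.28 ± 0.32, SE).

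Gnl3, the gene of nucleostemin, a GTPase of stem and proliferating cells, was at 468 CPM for neonatal replicate 4 and 165 and 123 CPM in replicates 7 and 8, within the adult range of 115 to 189 CPM. Pa2g4, whose product binds precursor particles, was at 249, 126 and 124 CPM among neonatal and 84.0 to 164 CPM in adult libraries. Mybbp1a, a nucleolar protein of precursor processing that also binds transcription factors, had the reverse pattern. It was at 77.7 CPM in neonatal replicate 4, below every adult library (114 to 233 CPM), and at 331 and 374 CPM in replicates 7 and 8, above all of them (log2 fold change without replicate 4 of 1.14 ± 0.31, SE; adjusted p = 0.0746 by edgeR).

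On levels per kilobase of exon (RPKM), Npm1 was the highest member in 5 libraries, at 281 to 1147 RPKM over all 6, and Nop56 passed it in neonatal replicate 7, at 284.5 against 281 RPKM. Nop56 ran from 128 to 381 and Nhp2 from 148 to 600 RPKM. Utp20 was at 1.90 to 3.82 and Noc3l at 2.57 to 4.28 RPKM. Utp20 was the lowest member in all 6 libraries and Noc3l the next in 5, while Rrp12 took that place in neonatal replicate 4 at 3.11 RPKM. The ranges of Utp20 and Noc3l overlapped. The exon length counted for Ncl was 8257 bases, which lowers its level per kilobase.

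The members also differed between the adult libraries. Adult replicate 4 had the highest value of the adult group in 34 of 38 members, against 34.8% of all genes, and adult replicate 2 the lowest in 26. The exceptions were Polr1a, highest in adult replicate 2, and Nhp2, Pes1 and Nip7, highest in adult replicate 1. The median log2 ratio of the members to the adult mean was -0.22, -0.31 and 0.37 in adult replicates 1, 2 and 4, and 0.33, 0.42 and 0.35 in neonatal replicates 4, 7 and 8. Over all 13272 genes tested the same median was -0.025, -0.019 and -0.017 in adult replicates 1, 2 and 4. It was -0.27, -0.068 and -0.063 in neonatal replicates 4, 7 and 8. Adult replicate 4 lay within the neonatal range on the members' median alone, before the lower median of all genes in the neonatal libraries is taken into account. The summed maturing neutrophil markers were at 5974, 14890 and 1846 CPM in the same 3 adult libraries, and 10 proliferation markers summed to 2790, 2859 and 3476 CPM there and to 3555, 2621 and 2930 CPM in the neonatal libraries. Their part in the members' values was not tested. Leaving out adult replicate 4 raised the members' median from 0.44 to 0.67, and 0 members were called, against 0.0219% of all genes. In bulk samples, fewer cells of a type and less RNA per cell cannot be told apart.

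GC content and exon length moved with which members were high in which neonatal library. GC content was taken from the GENCODE transcript models of GRCm38, the assembly that mm10 names. Across the 38 members, the log2 ratio of neonatal replicates 7 and 8 to the adult mean had a Pearson r of 0.65 and a Spearman rho of 0.62 with GC content, against 0.40 and 0.50 across 10548 genes. The log2 ratio of neonatal replicate 4 had a Pearson r of -0.52 and a Spearman rho of -0.54 with exon length, against -0.46 and -0.54 across the same genes. The 9 members above the adult mean in neonatal replicate 4 only had a median GC content of 44.6%, and the 13 above it in replicates 7 and 8 only had 54.4%. Nhp2 at 56.2% and Nip7 at 52.5% GC departed from this, with low values in replicates 7 and 8.

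**Figure D5:**
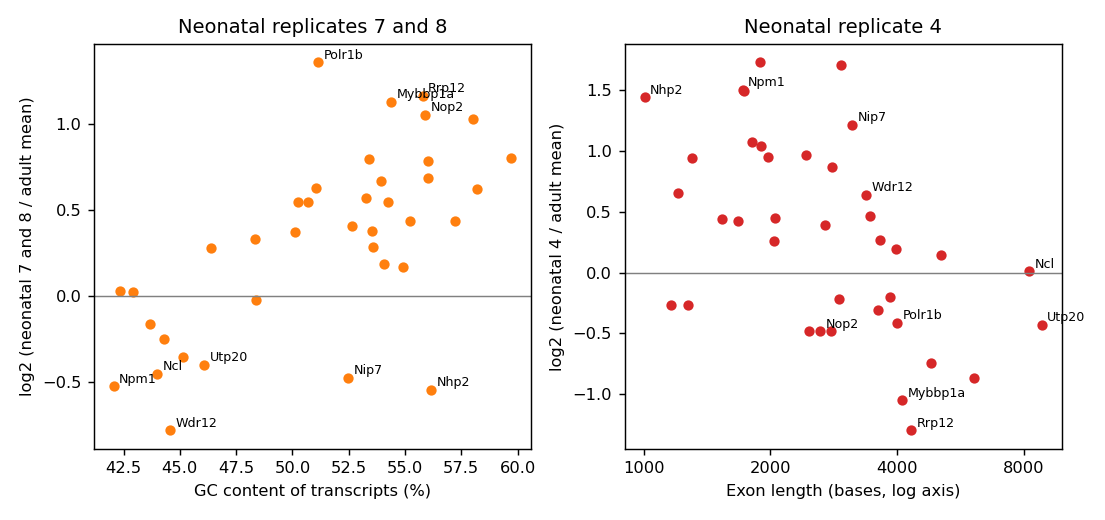
Left, log2 ratio of neonatal replicates 7 and 8 to the adult mean (y axis) against GC content of each member's transcripts (x axis, percent); right, log2 ratio of neonatal replicate 4 (y axis) against exon length (x axis, log scale), 1 point per member. The left panel rises with GC content (Pearson r 0.65) and the right panel falls with length (Pearson r -0.52).

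With each library's trend on length and GC content removed, an alternative chosen after seeing the data, 37 of 38 members had a positive log2 fold change on 6 libraries (median 0.34, 0 called). Of all genes, 51.3% were positive and 0.0829% were called in that setting. With the same offsets and without neonatal replicate 4, 28 of 38 were positive, against 47.7% of all genes. The members' median was 0.20 and 0 members were called. Polr1b had a log2 fold change of 1.13 there (edgeR adjusted p = 0.0918), and 7 of 13856 genes passed in all.

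Other ribosome biogenesis genes, 142 in 5 lists, were also more often positive than negative on 6 libraries. On 6 libraries 112 of 142 had a positive log2 fold change (78.9%, median 0.27), against 53.5% of all genes. None was called, against 0.0527% of all genes. Without overlap, 12 (8.45%) were higher and 2 (1.41%) lower, against 7.67% and 12% of all genes. Without neonatal replicate 4, 65 of 142 were positive (45.8%, median -0.03), against 48% of all genes. There 3 were called higher and 0 lower (2.11%, against 5.98% of all genes). In that comparison 40 (28.2%) were higher and 39 (27.5%) lower without overlap, against 25% and 25.6% of all genes. The difference between these genes and the 38 members was not tested. The 3 called genes, 1 in large subunit assembly and 2 in the small subunit processome, fall outside the rule for named genes and were chosen after their values were seen: Ddx54, an RNA helicase gene, with 63.6 to 73.0 CPM among adult libraries, 149 and 171.5 CPM for neonatal replicates 7 and 8, and 25.1 CPM for replicate 4, and Nol6 and Pwp2 of the small subunit processome, also lowest of all libraries in neonatal replicate 4.

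Other Pol I subunits and factors were positive in 12 of 15 genes (median 0.40), which turned to 5 of 15 without neonatal replicate 4 (median -0.42). Taf1a, a subunit of the Pol I selectivity factor, was at 18.8 to 27.2 CPM among neonatal and 12.2 to 14.4 CPM in adult libraries, and Polr2e, shared by the nuclear RNA polymerases, at 88.4 to 202 and 58.7 to 84.2 CPM. Other genes of the small subunit processome were positive in 30 of 41 (median 0.24), and in 16 of 41 without neonatal replicate 4 (median -0.085). Nob1, the nuclease of the final small subunit cleavage, was at 101 to 128.5 CPM among neonatal and 55.3 to 82.6 CPM in adult libraries, and Rrp7a at 50.8 to 74.1 and 40.7 to 49.3 CPM. Other genes of large subunit assembly were positive in 35 of 42 (median 0.26), and in 22 of 42 without neonatal replicate 4 (median 0.03). Eif6, which keeps the subunits apart until the large one is mature, was at 221 to 253 CPM among neonatal and 139 to 188 CPM among adult libraries, and Ddx56 and Lsg1 were also higher without overlap. Mdn1, a very large ATPase that strips factors off the large subunit precursor, was lower without overlap, at 8.77 to 11.1 CPM among neonatal and 14.55 to 21.96 CPM in adult libraries (log2 fold change -0.87 ± 0.36, SE; adjusted p = 0.392 by edgeR).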

How the data were processed

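The deposited values were raw counts of reads per gene, made by the authors with featureCounts v1.5.1 on a UCSC mm10 annotation, from primary alignments and without a strand option, per the file headers. RNA was polyA-selected and read single-end from a kit that does not mark strand, per the labels' protocols. Trimmomatic, Bowtie, TopHat and DESeq2 are listed without versions, per the submitters' processing notes.

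Low genes were removed (filterByExpr, minimum count 10, 13272 genes kept), and edgeR 4.0.16 (R 4.3.3) then fitted neonatal minus adult with TMM scaling and a robust quasi-likelihood F test. The adjusted p is Benjamini-Hochberg's over all genes kept, called below 0.05. The SE is the absolute log2 fold change over the square root of F. CPM uses TMM library sizes. Alternatives used DESeq2 1.42.0 and limma 3.58.1, other scalings and filters, and each library left out. The fits were tested on simulated data. Members and lists were chosen with earlier results of these data known. Named were all members, Rn45s, Myc and, per other list and direction, up to 3 genes without overlap, with a larger group mean of at least 2 CPM and the smallest p; 2 genes of the lists are not reported here. Library totals are in the report.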

Additional observations from a re-analysis of the deposited data

How the results depend on the processing

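No paired analysis was made because the labels give no pairing between the adult replicates 1, 2 and 4 and the neonatal replicates 4, 7 and 8. Over 23 alternatives, 4 of them chosen after seeing the data, the members' median log2 fold change ran from 0.20 to 0.67, and no member was called lower. Members called higher numbered 0 except in 4 settings: 2 with voom quality weights (Polr1b, Noc4l), 1 without neonatal replicate 4 (Polr1b), 7 with DESeq2 without neonatal replicate 4 (Polr1b, Fbl, Rrp12, Noc4l, Ppan, Nop2, Mybbp1a) and 1 with upper quartile scaling without it (Polr1b). In either direction these are 5.26%, 2.63%, 18.4% and 2.63% of the members, below the 7.86%, 5.98%, 23.8% and 5.54% of all genes called there. All of the members called were higher. In edgeR without neonatal replicate 4, 3.72% of all genes were called higher. The share of all genes called higher was not counted in the other settings named here, so the members cannot be compared by direction there. Other ribosome biogenesis genes called numbered 2, 3, 32 (21 higher, 11 lower) and 3 in these settings, or 1.41%, 2.11%, 22.5% and 2.11%, also below the shares of all genes, and 0 in the rest. Rn45s kept its direction in 22 alternatives and passed in 5, with 1.242 in DESeq2, 1.38 with voom quality weights, 1.477 without neonatal replicate 4, and 1.48 with DESeq2 and 1.422 with upper quartile scaling without it. With each library left out in turn its log2 fold change ran from 1.078 to 1.477.

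Of 873 values of single members, 62 had the other sign, and 19 members never changed sign. With voom, values of the other sign were Dkc1 at -0.003, Nhp2 at -0.023, Wdr43 at -0.058 and Nip7 at -0.122. With voom quality weights, values of the other sign were Dkc1 at -0.17, Nhp2 at -0.339, Wdr43 at -0.151, Nip7 at -0.346 and Npm1 at -0.254. With library totals alone, the value of the other sign was Wdr43 at -0.048. With the length trend of each library removed, values of the other sign were Utp20 at 0.082, Wdr12 at 0.084, Noc3l at 0.149 and Ncl at 0.249. With the length and GC trends of each library removed, values of the other sign were Utp20 at 0.122, Bop1 at -0.092, Wdr12 at 0.058, Noc3l at 0.245 and Ncl at 0.281. With length and GC trends removed and without neonatal replicate 4, values of the other sign were Polr1c at -0.038, Ubtf at -0.084, Dkc1 at -0.136, Nhp2 at -0.679, Utp20 at 0.042, Wdr43 at -0.004, Bop1 at -0.188, Nop16 at -0.114, Rrp1b at -0.015, Nip7 at -0.823, Noc3l at 0.107 and Ncl at 0.073. With DESeq2 and without neonatal replicate 4, values of the other sign were Dkc1 at -0.338, Nhp2 at -0.531, Wdr43 at -0.233, Nip7 at -0.462, Npm1 at -0.51 and Pa2g4 at -0.01. With upper quartile scaling and without neonatal replicate 4, values of the other sign were Nop58 at -0.02, Dkc1 at -0.395, Nhp2 at -0.588, Wdr43 at -0.291, Nip7 at -0.518, Npm1 at -0.568, Gnl3 at -0.008 and Pa2g4 at -0.067. With each library left out in turn, Polr1a ran from -0.164 to 0.555, Ubtf from -0.052 to 0.445, Rrn3 from -0.036 to 0.287, Dkc1 from -0.342 to 0.479, Nhp2 from -0.533 to 0.769, Wdr43 from -0.237 to 0.185, Bop1 from -0.066 to 0.596, Wdr12 from -0.77 to 0.232, Nip7 from -0.464 to 0.603, Noc3l from -0.187 to 0.135, Npm1 from -0.513 to 0.815 and Pa2g4 from -0.013 to 0.608. The sign changed without adult replicate 2 for Wdr43. The sign changed without adult replicate 4 for Wdr12 and Noc3l. The sign changed without neonatal replicate 4 for Dkc1, Nhp2, Wdr43, Nip7, Npm1 and Pa2g4. The sign changed without neonatal replicate 7 for Polr1a, Ubtf, Bop1, Wdr12 and Noc3l. The sign changed without neonatal replicate 8 for Ubtf, Rrn3 and Wdr12. The cause was not tested. Neonatal replicate 4, at 3932833 counts, enters every result on 6 libraries, and the other totals were 16.2 times as large on average. With all libraries thinned to its total, the members' median was 0.446, against 0.442 in the main fit. There 0 members were called, against 0.0567% of all genes. How depth and other features of that library act on these results was not tested.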

Other observations

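Genes of neighbouring RNA pathways were read in the same fits. Of 23 genes of the nuclear exosome, which trims the ends of ribosomal RNA precursors, and of RNase MRP, 19 had a positive log2 fold change on 6 libraries (median 0.27) and 8 without neonatal replicate 4 (median -0.14), and none was called. Exosc5 was at 193 to 285 CPM among neonatal and 137 to 169 CPM among adult libraries, Exosc6 at 60.3 to 92.4 and 38.7 to 52.0 CPM, and Exosc2 at 107 to 119 and 63.3 to 105 CPM. The helicase gene Skiv2l2, whose product feeds RNA to the exosome, was lower without overlap, at 110 to 149 CPM among neonatal and 158 to 177 CPM among adult libraries.

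Of 21 genes of Pol III and its factors, which make the smallest ribosomal RNA and transfer RNAs, 16 had a positive log2 fold change on 6 libraries (median 0.27) and 14 without neonatal replicate 4 (median 0.38), and none was called. Brf2 was at 16.4 to 21.5 CPM among neonatal and 12.4 to 13.4 CPM in adult libraries.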
